A study of Macaca mulatta with 6 samples.

Results

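Granins and prohormone processing enzymes were followed in the adrenal gland of rhesus macaques over 6 clock times. The members are all probe sets whose platform annotation names 1 gene only, that gene being CHGA, CHGB, SCG2, SCG3, SCG5, PCSK1, PCSK2, CPE or PAM. There were 10 such probe sets, of 22283 on the array, and they cover 7 of the 9 genes, of 11963 genes named by a probe set of their own. PCSK1 and PCSK2, the prohormone convertases that make the first cuts in peptide precursors, had no probe set that names 1 gene only and were not analysed here. Probe sets that name several genes were left out and were not searched for them. CPE had 2 probe sets, PAM had 3, and CHGA, CHGB, SCG2, SCG3 and SCG5 had 1 each.

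The series asked how adrenal gene expression in a primate varies over the day. Left adrenal glands came from 6 ovariectomized females, caged singly for 3 months with 12 h of light and 12 h of dark and fasted for 12 h before necropsy. Each clock time had 1 animal and 1 array. The 3 AM and 7 AM animals were aged 12 years and the 11 AM animal 10 years plus 37 days. The 3 PM animal was aged 8 years plus 106 days, the 7 PM animal 7 years plus 82 days and the 11 PM animal 8 years plus 70 days. Day below means the 7 AM, 11 AM and 3 PM arrays, and night the 7 PM, 11 PM and 3 AM arrays. The labels do not say when lights came on. The gland is a whole organ, with a steroid-making cortex around a medulla of chromaffin cells, and fewer cells of a type and less RNA per cell cannot be told apart in it.

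Chromaffin cells store adrenaline and noradrenaline in dense-core granules together with granins and peptide precursors. Granins are acidic proteins that help such granules form and are themselves cut into peptides. In the granule, convertases cut precursors at pairs of basic residues, carboxypeptidase E (CPE) trims the basic residues that remain at the new end, and PAM turns a terminal glycine into the amide that many peptides need for activity. SCG5, also called 7B2, is the chaperone of the convertase PCSK2.

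The medulla was represented on every array: TH, which catalyses the first and limiting step of catecholamine synthesis, had its lowest intensity, 1903, at 3 AM. The trimmed mean intensity lay between 325.04 and 325.09 on all arrays. Spiked hybridisation controls had their lowest geometric means at 3 AM (414) and 3 PM (538), with 790 to 900 elsewhere. For the GAPDH control, the 3' over 5' signal, which reads RNA integrity, was between 0.721 and 1.16. Intensities are in arbitrary units, and because probes differ in how they bind and were designed on human sequence, a brighter probe set need not mean a more abundant transcript.

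Of the 5 granin transcripts, CHGB, SCG2 and SCG3 had their lowest levels in the animal collected at 3 AM. All 5 had their highest in the animal collected at 7 AM or at 11 AM. Of all probe sets tested, 17.4% were lowest at 3 AM, 16.6% highest at 7 AM and 14.3% highest at 11 AM. SCG3 was dim and not tested, and its values at 7 AM, 11 AM and 3 PM were nearly equal. CPE followed a smooth course with its highest levels in the morning on both probe sets, while the 3 probe sets of PAM differed from one another and were flat or irregular. No member passed either test after adjustment over all probe sets.

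**Figure D1:**
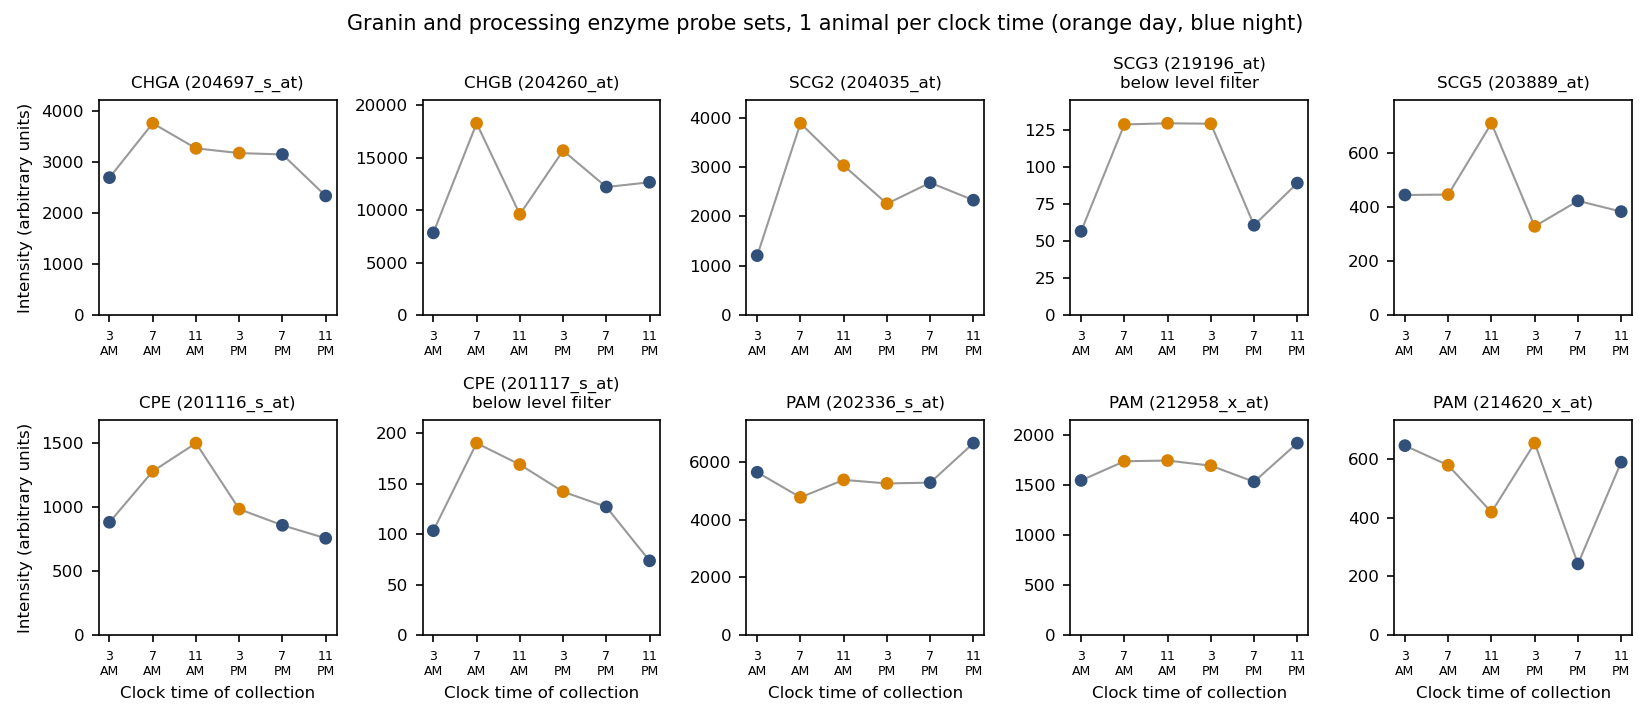
Intensity (arbitrary units, linear axis from 0) of each of the 10 probe sets against clock time, 1 animal per point, with day arrays in orange and night arrays in blue. SCG2 and CHGB are lowest at 3 AM and highest at 7 AM, both CPE probe sets are highest in the morning and lowest at 11 PM, and the main PAM probe set is highest at 11 PM.

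CHGA, chromogranin A, is the precursor of peptides such as catestatin, which inhibits catecholamine release. Its probe set (204697_s_at) had an intensity of 2692 at 3 AM, 3756 at 7 AM, 3266 at 11 AM, 3173 at 3 PM, 3147 at 7 PM and 2334 at 11 PM. All 3 day values lay above all 3 night values, although the 3 PM and 7 PM animals were almost level. The mean was 3398 ± 313 by day and 2724 ± 407 by night (SD, n = 3 each), a log2 difference of 0.33 ± 0.20 (SE), and limma's adjusted p was 0.936.

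CHGB, chromogranin B, is a second granin of the granule core. Its probe set (204260_at) read 7835 at 3 AM, 18268 at 7 AM, 9600 at 11 AM, 15668 at 3 PM, 12199 at 7 PM and 12650 at 11 PM. The 3 AM animal was lowest and the 7 AM animal highest, but the 11 AM animal was lower than those at 7 PM and 11 PM, so day and night overlapped. CHGB averaged 14512 ± 4448 by day and 10895 ± 2659 by night (SD, n = 3 each), with a log2 difference of 0.39 ± 0.30 (SE; limma adjusted p = 0.951). The difference was 0.17 without the 3 AM array, 0.20 without 7 AM and 0.67 without 11 AM, where the unadjusted threshold of 0.05 was passed.

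SCG2, secretogranin II, is the precursor of secretoneurin, a peptide that acts on blood vessels and nerve cells. Its probe set (204035_at) had the widest span of the tested granins, with 1205 at 3 AM, 3884 at 7 AM, 3028 at 11 AM, 2256 at 3 PM, 2681 at 7 PM and 2327 at 11 PM. The highest value was 3.22 times the lowest. The 3 AM animal stood below the other 5, and the 3 PM value lay among the night values, so the groups overlapped. SCG2 averaged 3056 ± 814 by day and 2071 ± 771 by night (SD, n = 3 each), a log2 difference of 0.61 ± 0.33 (SE; limma adjusted p = 0.916). Without the 3 AM array the difference was 0.26, and without the 7 PM array it was 0.83 and passed the unadjusted threshold.

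SCG3, secretogranin III, binds CHGA and helps deliver it to the granule membrane. Its probe set (219196_at) had low intensities, and its mean log2 value of 6.56 lay below the level filter of 7.30, so it was not tested. It read 56.6 at 3 AM, 129 at 7 AM, 130 at 11 AM, 129 at 3 PM, 60.7 at 7 PM and 89.2 at 11 PM. The 3 day animals were nearly equal and all above the 3 night animals, with means of 129 ± 0.404 by day and 68.8 ± 17.8 by night (SD, n = 3 each). Such a separation was seen in 5.54% of tested probe sets, and its share among dim ones was not counted. The log2 difference was 0.93, and an exact two-sided permutation test gave p = 0.1, the smallest that 3 arrays against 3 can give. With no level filter, limma gave an adjusted p of 0.807 for SCG3.

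SCG5, unlike CHGA, CHGB and SCG2, was not low at 3 AM. Its probe set (203889_at) had 444 at 3 AM, 445 at 7 AM, 708 at 11 AM, 328 at 3 PM, 422 at 7 PM and 382 at 11 PM. Only the 11 AM animal stood apart, and the 3 PM animal was the lowest of all, so day and night overlapped. The log2 difference between day and night was 0.18 ± 0.28 (SE; limma adjusted p = 0.979), and it was -0.12 without the 11 AM array.

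Read together over the arrays, 1 of the 5 granins lay above its own mean log2 value at 3 AM, 5 at 7 AM, 4 at 11 AM, 3 at 3 PM, 2 at 7 PM and 1 at 11 PM. Among all tested probe sets the share above their own mean was 52.1% at 3 AM, 47.5% at 7 AM and between 49.5% and 53.9% on the other arrays. The 1 granin above its mean at 3 AM was SCG5, by 0.01 on the log2 scale, and the 1 at 11 PM was CHGB, by 0.05.

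Of the processing enzymes, CPE came closest to a daily pattern. Its brighter probe set (201116_s_at) read 879 at 3 AM, 1276 at 7 AM, 1496 at 11 AM, 981 at 3 PM, 855 at 7 PM and 754 at 11 PM. Intensity stood highest at 11 AM and was lower at each later clock time up to 11 PM, and all 3 day animals lay above all 3 night animals. CPE averaged 1251 ± 258 by day and 829 ± 66.3 by night (SD, n = 3 each), 1.49-fold higher by day, with a log2 difference of 0.57 ± 0.22 (SE).

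A cosine with a 24 h period fitted to this CPE probe set peaked at 10.0 h, with a peak 1.91 times its trough (log2 0.94 ± 0.27, SE) and an R2 of 0.923. The arrays can be placed around the clock in 60 distinct orders, and an exact test of R2 over them gave p = 0.0167, the smallest they can give. By limma the unadjusted p was 0.0284 for the cosine (moderated F test) and 0.0265 for the day difference (moderated test), and the adjusted p was 0.866 and 0.841. Neither fit passed the unadjusted threshold of 0.05 when the level filter was dropped, or when the array of 7 AM, 11 AM or 11 PM was left out, with day differences of 0.55, 0.43 and 0.51. The cosine fit also missed it when the 7 PM array was left out and with age as a covariate.

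The second CPE probe set (201117_s_at) was dim, with a mean log2 value of 7.01, and lay below the level filter. It had 104 at 3 AM, 190 at 7 AM, 169 at 11 AM, 142 at 3 PM, 127 at 7 PM and 73.6 at 11 PM. Day and night did not overlap here either, and the 11 PM animal was again the lowest. All day arrays lay above all night arrays in 5.54% of tested probe sets, which leave out dim ones such as this. Its mean was 167 ± 24.2 by day and 101 ± 26.8 by night (SD, n = 3 each), a log2 difference of 0.74, against 0.57 for the brighter probe set. These probe sets read the same RNA from the same animals, so they are no independent replicates.

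PAM, which amidates peptides and depends on copper and ascorbate, was read by 3 probe sets. The brightest (202336_s_at) had 5642 at 3 AM, 4771 at 7 AM, 5378 at 11 AM, 5254 at 3 PM, 5282 at 7 PM and 6652 at 11 PM. It was highest at 11 PM and lowest at 7 AM, with a span of 1.39 times and overlapping groups. The log2 difference between day and night was -0.19 ± 0.19 (SE; limma adjusted p = 0.967), the only negative one among the members.

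The other two PAM probe sets carry the suffix that Affymetrix gives where some probes can also match other transcripts. The first (212958_x_at) lay between 1529 at 7 PM and 1915 at 11 PM, with a log2 day difference of 0.06 ± 0.19 (SE; limma adjusted p = 0.985) and a fitted peak-to-trough difference of 0.03. The second (214620_x_at) read 646 at 3 AM, 579 at 7 AM, 419 at 11 AM, 654 at 3 PM, 242 at 7 PM and 589 at 11 PM. Its low values were at 7 PM and 11 AM, 1 by night and 1 by day, and its log2 day difference of 0.26 ± 0.37 (SE; limma adjusted p = 0.977) became -0.19 without the 7 PM array. The 3 probe sets of PAM thus had no common low array: the brightest was lowest at 7 AM and the other two at 7 PM. At 11 PM the brightest and 212958_x_at were both highest, and all 3 lay above their own mean log2 value (0.28, 0.18 and 0.25).

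**Figure D2:**
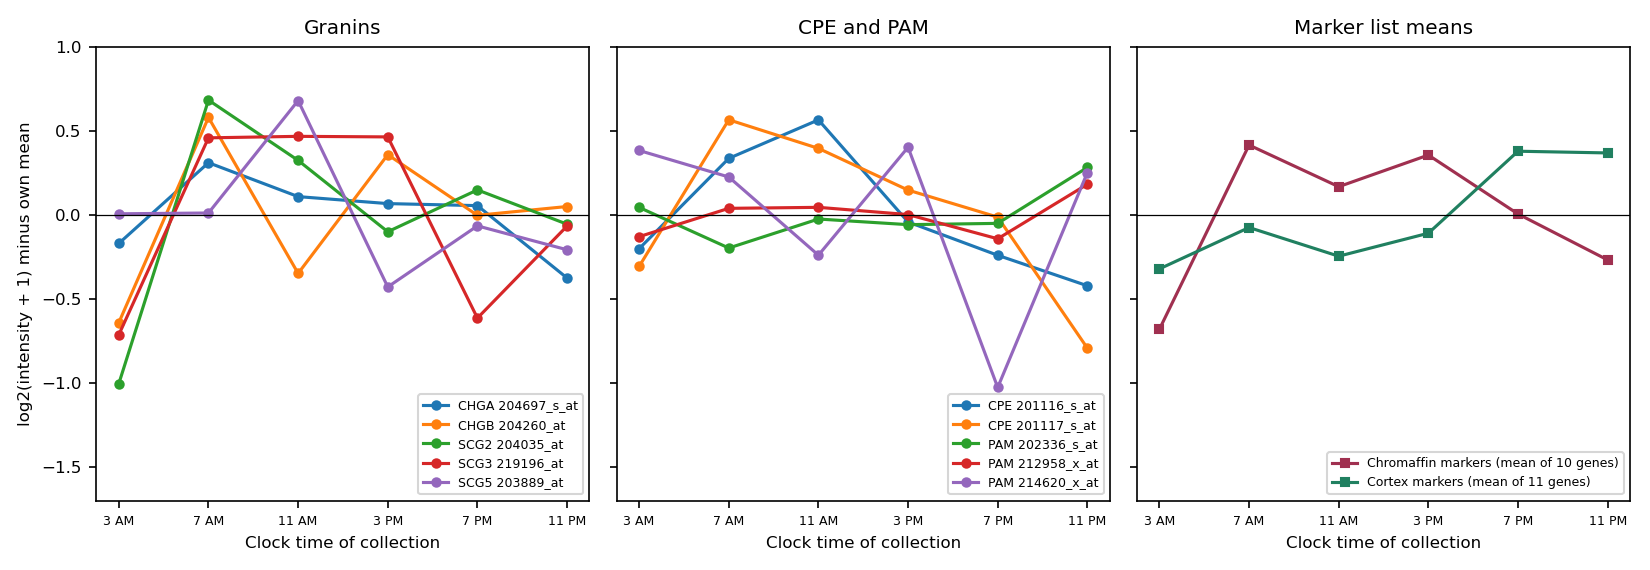
Log2(intensity + 1) minus each probe set's own mean against clock time, for the 5 granins (left), the CPE and PAM probe sets (middle) and the means of the chromaffin and cortex marker genes (right). The chromaffin markers are lowest at 3 AM and highest at 7 AM, as are SCG2 and CHGB, while the cortex markers are highest at 7 PM and 11 PM.

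In the cosine fit, 1 of the 8 members tested had an unadjusted p under 0.05, the brighter CPE probe set, beside 5.44% of all 11108 probe sets tested. After adjustment 0 members passed, as did 0% of all probe sets (limma's moderated F test; 604 of all had an unadjusted p under 0.05). Fitted peaks lay at 10.9 h for CHGA, 13.8 h for CHGB, 12.1 h for SCG2, 8.86 h for SCG5 and 22.7 h for the brightest PAM probe set, with log2 peak-to-trough differences of 0.49 ± 0.29, 0.36 ± 0.47, 0.76 ± 0.52, 0.56 ± 0.38 and 0.29 ± 0.27 (SE). R2 was 0.623 for CHGA and 0.0950 for CHGB, so a 24 h curve described CHGB poorly. The exact p over the 60 orders was 0.217 for CHGA, 0.817 for CHGB, 0.683 for SCG2, 0.583 for SCG5 and 0.383 for the brightest PAM probe set. The median peak-to-trough difference was 0.52 over the 8 members and 0.44 over all probe sets tested.

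Between day and night, 7 of the 8 members tested had a difference above 0, beside 49.6% of all probe sets. The median log2 difference was 0.29 over the members and -0.00275 over all. The split depends on what the arrays are scaled to: relative to the mean of 5 catecholamine genes, 0 of the 8 members were higher by day, as were 0.576% of all probe sets, because that scaling moved the median of all probe sets to -1.05. With an unadjusted p under 0.05, 1 member was higher by day, CPE, beside 2.93% of all, and 0 were lower, beside 2.59% of all. After adjustment 0 members passed, beside 0% of all (limma). CHGA and the brighter CPE probe set were the 2 of 8 with all day arrays above all night arrays, beside 5.54% of all, and 0 members had all day arrays below, beside 5.19% of all.

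Single arrays gave the extremes. CHGB and SCG2 were the 2 of 8 lowest at 3 AM, beside 17.4% of all probe sets, and CHGA, CHGB and SCG2 the 3 of 8 highest at 7 AM, beside 16.6%. CHGA and CPE were the 2 of 8 lowest at 11 PM, beside 17.1%, and SCG5 and CPE the 2 of 8 highest at 11 AM, beside 14.3%. Among all tested probe sets, 3.25% had a larger day difference than SCG2, 3.73% than CPE, 8.82% than CHGB, 12.5% than CHGA and 76.2% than the brightest PAM probe set.

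**Figure D3:**
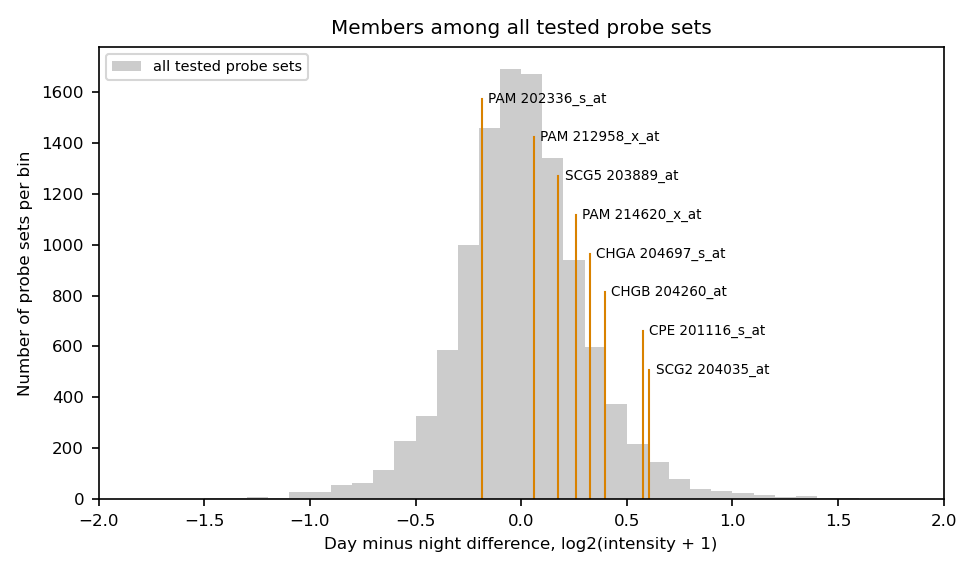
Number of tested probe sets per bin of 0.1 against the log2 day minus night difference, with the 8 tested members marked by orange lines whose height has no meaning. SCG2 (0.61) and CPE (0.57) lie farthest to the right, and the brightest PAM probe set (-0.19) lies left of 0.

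Some markers of the chromaffin cell were also higher by day, as CHGA, SCG2 and CPE were on average. The summed intensity of the 10 tested genes, of 15 listed, ran from 14230 to 19885 over the day arrays and from 8044 to 12478 over the night arrays, and 5 of the 10 were higher by day at an unadjusted p under 0.05. TH was 1.09 ± 0.31 higher by day on the log2 scale, PNMT, which makes adrenaline, 1.10 ± 0.29, and DBH, which makes noradrenaline, 0.92 ± 0.34 (SE; limma adjusted p = 0.841 for each). Of the 10 tested, 8 had a log2 day difference above 0 and 2 below, UCHL1 (-0.02 ± 0.20) and SLC6A2 (-0.00251 ± 0.37, SE). GCH1 differed by 0.37 ± 0.45 (SE) and peaked at 15.95 h. SLC18A1 differed by 0.59 ± 0.28 (SE), but was about level at 3 AM (208) and 7 AM (206). TH alone gave 8245 of the summed 19885 at 7 AM. The differences of TH, PNMT and DBH were larger than that of any tested member, of which SCG2 had the largest at 0.61; the gap between them was not tested. The summed intensity of the 11 tested cortex markers, of 14 listed, ran from 72695 to 78453 by day and from 61921 to 98352 by night, with the 3 AM array lowest. No tested marker of either list was at 0 on any array, but tested probe sets had passed a filter on mean level. The cortex marker MC2R read 23.6 at 11 AM. Without detection calls, a value above 0 does not show that a marker was detected. Summed adipocyte markers (2 tested of 5) ran from 1146 to 1935 by day and from 1842 to 3462 by night, and smooth muscle markers (4 tested of 5) from 3428 to 4809 by day and from 2724 to 7292 by night. The part of these cell types in the members' differences was not tested.

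**Figure D4:**
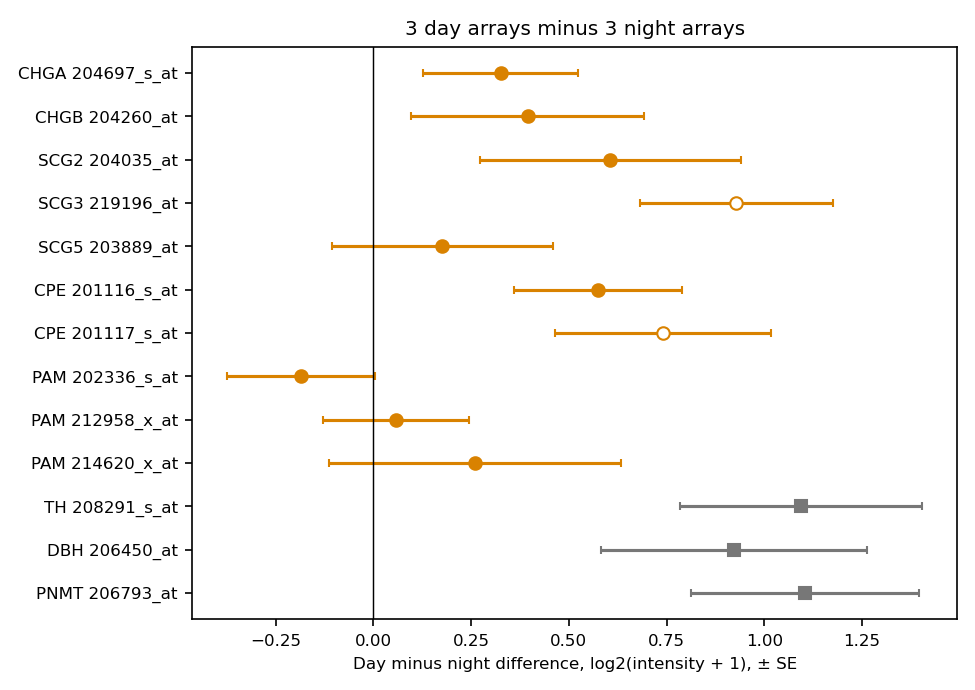
Mean log2(intensity + 1) of the 3 day arrays minus that of the 3 night arrays, with the standard error of the limma fit as bars. Circles are the 10 member probe sets, open where the probe set lay below the level filter and the error comes from the fit without a filter, and grey squares are TH, DBH and PNMT, which lie farther right (0.92 to 1.10) than every tested member.

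Age ran with the clock, since a 24 h cosine fitted to it peaked at 6.23 h with an R2 of 0.947. A straight line on age gave an R2 of 0.223 for the brighter CPE probe set, 0.0819 for CHGA, 0.0347 for CHGB, 0.0166 for SCG2 and 0.132 for SCG5, each below the R2 of that probe set's cosine, which has 1 more term. For the PAM probe set 214620_x_at the line gave 0.259 and the cosine 0.252. These R2 values do not test age against clock time, which cannot be told apart over these animals. With age as a covariate the day difference of CPE was 0.53 ± 0.22 (SE). Peak-to-trough differences became less certain, and most became larger: 1.48 ± 1.01 for CPE, 4.09 ± 1.79 for SCG2, 1.71 ± 1.65 for SCG5 and 1.24 ± 2.07 for CHGB (SE). Age follows nearly the same curve, so this fit can hardly separate age from clock time, and these sizes are no measure of a rhythm. The highest measured SCG2 value was only 3.22 times the lowest. That of CHGA was 0.48 ± 0.50, against 0.49 without age, and that of PAM 214620_x_at was 0.15 ± 1.08, against 0.72 (SE).

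The other genes of granule assembly and prohormone processing went both ways. Of 23 listed, 18 were tested, 10 with a day difference above 0 and 8 below, from -0.75 for PTPRN2 to 0.89 for PCSK1N with a median of 0.01 on the log2 scale. At an unadjusted p under 0.05, 1 was higher and 1 lower by day, and 0 passed adjustment by limma. The higher one was PCSK1N, which encodes proSAAS, a granule protein that inhibits PCSK1. PCSK1N had 1152 at 3 AM, 2501 at 7 AM, 2174 at 11 AM, 2170 at 3 PM, 1068 at 7 PM and 1509 at 11 PM. Its 3 day animals lay above its 3 night animals, with a log2 difference of 0.89 ± 0.21 (SE; limma adjusted p = 0.816).

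The lower one was CADPS2, which primes dense-core vesicles for release. CADPS2 read 394 at 3 AM, 289 at 7 AM, 186 at 11 AM, 240 at 3 PM, 368 at 7 PM and 383 at 11 PM. All 3 day values lay below all 3 night values, with a log2 difference of -0.70 ± 0.21 (SE; limma adjusted p = 0.841). Its cosine, fitted with a peak at 23.8 h, was the only one of the 18 with an unadjusted p under 0.05 (limma adjusted p = 0.866).

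Among 16 peptide precursors that such granules can carry, 7 were tested and 4 of them had a day difference above 0, with a median of 0.22. GAL, the precursor of galanin, was the 1 with an unadjusted p under 0.05 by day (log2 0.75 ± 0.30, SE; limma adjusted p = 0.841). PENK, the precursor of the enkephalins, differed by 0.65 ± 0.32 (SE; limma adjusted p = 0.916). NMB, the precursor of neuromedin B, was the 1 with an unadjusted p under 0.05 in the cosine fit (limma adjusted p = 0.866). It peaked at 19.2 h, later than CHGA (10.9 h) and the brighter CPE probe set (10.0 h). ADCYAP1, the precursor of PACAP, peaked at 16.7 h, 0.81 ± 0.31 (SE) above its trough on the log2 scale (limma adjusted p = 0.866).

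The genes most like the granins were sought among 7158 other tested genes, by Pearson's r over the 6 arrays with the mean standardized profile of the 5 granins. They were FAU, a ribosomal fusion protein gene (r = 0.989, Spearman's rho = 1), GNB3, a G protein subunit (r = 0.985, rho = 0.943), ZNF322 (r = 0.984, rho = 1), ATP1B1, a subunit of the sodium pump (r = 0.982, rho = 1), and PNMT (r = 0.982, rho = 0.943). PNMT had 936 at 3 AM, 3597 at 7 AM, 2830 at 11 AM, 1855 at 3 PM, 1389 at 7 PM and 1460 at 11 PM. It shared with SCG2 the low 3 AM value and the high values at 7 AM and 11 AM. The mean profile of CPE and PAM joined unlike courses, since CPE was lowest at 11 PM and the brightest PAM probe set highest there. That mean stood highest at 11 AM (0.68) and 11 PM (0.33), and neither gene followed it. Closest to it were CRKL (r = 0.971, rho = 0.829), POU3F1 (r = 0.968, rho = 0.943), CD53 (r = 0.964, rho = 0.829), PDCD2 (r = 0.963, rho = 0.943) and PCBP2 (r = 0.959, rho = 1), which need not resemble either gene. These genes were picked for a high r over 6 arrays that share animals and scaling, so the values are a description and carry no test.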

How the data were processed

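Adrenal RNA was purified on silica columns, labelled with biotin during in vitro transcription and hybridised to an Affymetrix human array, per the labels' protocols. The deposited values are 1 linear intensity per probe set and array, already scaled by the authors to a common trimmed mean, as the values show; the labels name neither the software nor the summary method. Genes were named from the platform annotation, in which 19065 probe sets name 1 gene, 1043 several and 2107 none.

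Values were converted to log2(intensity + 1), on which scale fold changes of dim probe sets are understated. Of 22215 probe sets that are not controls, the 11108 with a mean at or above their median (log2 7.30) were tested. A 24 h cosine (3 residual degrees of freedom) and the contrast of 3 day against 3 night arrays were fitted to all of them with limma 3.58.1 in R 4.3.3, with Benjamini-Hochberg adjustment over all and a threshold of 0.05. No clock time has a second animal, so errors are the spread of single animals, and the number of arrays limits the precision. The fits were tested on simulated data. The listed genes outside the members were represented by their probe set with the highest mean, and named where an unadjusted p was under 0.05 in either fit or among the 2 smallest, with TH, DBH and PNMT added; likeness took the 5 genes with the highest r. Members, lists and rules were chosen with earlier results of these data known. Alternatives covered filters, normalization, pseudocount 16, probe set choice, priors, age, the ordinary test and arrays left out.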

Additional observations from a re-analysis of the deposited data

How the results depend on the processing

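After adjustment, 0 members passed either test under every alternative except scaling to the catecholamine genes (TH, DBH, PNMT, DDC and SLC18A1). That scaling moved the median day difference of all probe sets to -1.05 by its construction, and the p values there describe that shift. With it, 5 of the 8 members tested passed the day contrast, adjusted or not. Of all 11108 probe sets, 9909 passed unadjusted and 9785 adjusted, so the count is no trait of the members. With that scaling 0 members were higher by day, beside 0.576% of all probe sets. Under it the log2 day differences were -0.72 for CHGA, -0.65 for CHGB, -0.44 for SCG2, -0.87 for SCG5, -0.47 for CPE, -1.23 for PAM 202336_s_at, -0.99 for PAM 212958_x_at and -0.78 for PAM 214620_x_at. Peaks moved by over 6 h, with log2 peak-to-trough differences of 0.83 for CHGA, 1.09 for CHGB, 0.64 for SCG2, 0.88 for SCG5, 0.45 for CPE and 1.30 for PAM 212958_x_at. CPE no longer passed the unadjusted cosine threshold there, and PAM 202336_s_at did (1.60), so the count of 1 was another member. At the unadjusted threshold, the cosine count of 1 became 0 with no level filter and 0 with age as a covariate, and the day count of 1 became 2 with no filter (SCG3 and the dimmer CPE probe set). Leaving out 1 array gave 0 to 2 in either fit and 6 to 7 members higher by day. The day difference ran from -0.12 to 0.43 for SCG5 and from -0.19 to 0.52 for PAM 214620_x_at, and the peak-to-trough difference from 0.14 to 0.97 for CHGB, 0.0034 to 0.27 for PAM 212958_x_at and 0.38 to 1.55 for PAM 214620_x_at. Peaks moved by over 6 h for CHGB without 3 AM (to 4.35 h), PAM 212958_x_at without 7 AM (to 0.041 h) or 7 PM (to 19.1 h), and PAM 214620_x_at without 7 PM (to 22.1 h). With all other settings, the peaks that moved by over 6 h were those of PAM 212958_x_at under quantile normalization (0.067), CHGB (1.24) and PAM 214620_x_at (0.15) with age as a covariate, where the difference was also 0.57 for PAM 202336_s_at and 1.13 for PAM 212958_x_at, and CHGB (0.99) without the 3 AM and 3 PM arrays, a fit chosen after seeing the data, in which both counts stayed at 1. Apart from the scaling above and the number of probe sets or arrays, the cause was not tested. No paired analysis was possible because no clock time holds more than 1 animal. The files give no detection calls, so the level filter is the sole limit on dim probe sets.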

Other observations

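Set against the catecholamine genes on each array, the members took another order over the clock. The mean of TH, DBH, PNMT, DDC and SLC18A1 lay at -0.63 from its own mean at 3 AM, 0.77 at 7 AM, 0.31 at 11 AM, 0.49 at 3 PM, -0.44 at 7 PM and -0.50 at 11 PM on the log2 scale. After subtracting it, CHGA stood at 0.46 at 3 AM, -0.46 at 7 AM, -0.20 at 11 AM, -0.42 at 3 PM, 0.49 at 7 PM and 0.13 at 11 PM. Every night animal thus had more CHGA relative to these genes than every day animal. The same held for CHGB, PAM 202336_s_at and PAM 212958_x_at, so it was not particular to CHGA. The gap was widest for PAM 202336_s_at, whose lowest night value was 0.39 at 7 PM and highest day value -0.33 at 11 AM. The same subtraction moved the median day difference of all tested probe sets to -1.05 and left 0.576% of them higher by day. How many of them separate night from day as CHGA does was not counted. SCG3 stayed within a narrower band than CHGA, from -0.31 at 7 AM to 0.43 at 11 PM. The dimmer CPE probe set had a similar band, from -0.34 at 3 PM to 0.42 at 7 PM. Both lay below the level filter, though at their intensities adding 1 before log2 understates fold changes only slightly. The catecholamine genes were already known to be higher by day on these arrays, so the direction of such a difference carries no test.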
